A study of Mus musculus with 27 samples.

Results

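The esophagus of Nrf2-/- mice was compared between postnatal day 7 (P7) and adulthood at 8 weeks, to ask which changes of the maturing esophagus take place in mice that lack the transcription factor Nrf2. The comparison uses 6 of the 27 arrays of the series, 3 from Nrf2-/- pups at P7 and 3 from Nrf2-/- adults. They were chosen by their labels, with earlier results of these data known. Another 6 arrays, 3 of wild-type (WT) pups at P7 and 3 of WT adults, were set beside them, and the other 15 arrays (WT embryos and newborns, and P7 pups with other *Keap1* genotypes) were not used. The mutant mice carried a null allele of *Nfe2l2*, the gene of Nrf2, in every cell, by the labels on the C57BL/6J background of the WT mice, and RNA was drawn from individual animals. At P7 the whole esophagus was taken, with muscle, connective tissue, vessels and nerves, whereas from the adults of both genotypes only the epithelium was taken. Age and tissue therefore cannot be told apart, and in such samples fewer cells of a type and less RNA per cell cannot be told apart either.

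The mouse esophagus is lined by a stratified squamous epithelium. Its basal cells divide on a basement membrane, and their daughters move up, switch keratins, build desmosomes and tight junctions, and end as a cornified layer of dead cells that are held together by cross-linked envelope proteins and lipids. Nrf2 is a basic leucine zipper transcription factor that Keap1 holds for degradation. When released, it pairs with small Maf proteins at antioxidant response elements and turns on genes of glutathione synthesis, conjugation, quinone reduction and NADPH supply. In squamous epithelia it is also known for an influence on keratinization.

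Expression was read as the ratio of the sample (Cy5) to a reference RNA pooled from mouse cell lines (Cy3) on Agilent arrays, and is given here as a log2 ratio. A change is the adult mean minus the P7 mean with its standard error (SE), and rose or fell is written where limma's p, adjusted over all genes tested after Benjamini and Hochberg, was at most 0.05. From 63.5% to 67.6% of the Cy5 spots of the 6 Nrf2-/- arrays were well above background. The scanner software marked 9.62% to 14.2% of the spots as outliers on the 3 P7 arrays and 0.343% to 0.523% on the 3 adult arrays. Among the brightest 10% of probes the marks took 51.5% to 72.7% at P7 and at most 0.631% in adults, so that many highly expressed genes could be tested only with the marked spots kept, which is written as "spots kept" beside such values. The 3 P7 arrays shared 1 slide, 1 scan and 1 version of the software, and the 3 adult arrays lay on 2 other slides and scans under another version, so that age cannot be told apart from any of these.

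The reference channel moved together with some of the largest changes. Of 24914 probes well above background in Cy3 on all 6 arrays, 573 (2.3%) differed more than 2-fold in Cy3 between the ages. Among the 153 probes whose Cy5 signal was at least 16-fold higher in adults this share was 72.5%, with a median Cy3 difference of 1.94 beside a median Cy5 difference of 5.25 on the log2 scale. Among the 256 probes at least 16-fold lower in adults it was 60.2%, with medians of -1.38 for Cy3 and -4.77 for Cy5. The reference RNA was the same on every array, so the ratios of such genes were smaller than the differences in Cy5 itself. Cy5 alone, scaled between arrays, is therefore given beside the ratio for some of the genes where both part, and why Cy3 moved was not tested.

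The deletion itself was visible on all 6 arrays. A probe of *Nfe2l2* read -4.13, -4.10 and -4.13 at P7 and -2.86, -3.35 and -3.62 in adults, against -0.19 to 0.44 on the WT P7 arrays and 1.71 to 2.31 on the WT adult arrays. A second probe read -6.59, -6.33 and -6.56 at P7 and -5.03, -6.35 and -6.26 in adults. It was not well above background on the 3 Nrf2-/- P7 arrays, so that changes averaged with it have no exact size. The third probe annotated to the gene, matched by name only, lay between -1.33 and -0.65 on the 6 Nrf2-/- arrays and between -1.16 and -0.55 on the WT arrays, and was left out. Averaged over the first 2 probes, *Nfe2l2* was 0.65 higher in Nrf2-/- adults (SE 0.26), with an adjusted p of 0.0671, and 0.73 higher with spots kept (adjusted p = 0.0463), or 1.34 higher on Cy5 alone (adjusted p = 0.0029). *Rbm45*, the neighbouring gene, read 0.89, 1.19 and 1.05 at P7 and 1.03, 1.20 and 1.39 in adults (change 0.16, SE 0.14, adjusted p = 0.349), and lay between -2.25 and -1.53 on every WT array. *Keap1*, which encodes the adaptor that marks Nrf2 for degradation, read 0.97 and 1.39 on the P7 arrays with a value and 0.74, 0.71 and -0.62 in adults, and did not pass the test in the ratio (-0.90, SE 0.43, adjusted p = 0.124), but fell by 0.97 on Cy5 alone (adjusted p = 0.00036). Its unscaled Cy3 intensity was 6208, 6208 and 16051 on the 3 adult arrays, beside Cy5 intensities of 6489, 8259 and 7653.

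From P7 to adulthood in Nrf2-/- esophagi, 8864 of 16008 genes changed (55.4%), 4328 of them higher in adults (27.0%) and 4536 lower (28.3%). All counts of list members below are to be read beside these shares. At least 2-fold, 1603 genes rose and 2056 fell. With spots kept, 10725 of 18601 genes changed (57.7%), of which 5345 rose (28.7%) and 5380 fell (28.9%). On Cy5 alone with spots kept 11345 changed (61.0%), 33.7% upward and 27.3% downward. The split between the directions depends on the centring: 48.8% of the called genes were higher as reported, but 77.8% (8239 of 10589) when arrays were centred on their median without loess, which moved the median change of all genes from -0.00 to 0.44. Centring on pan-epithelial genes instead moved it to -1.16. Changes well below 0.44 in size, and rises smaller than the pan-epithelial shift to -1.16, therefore have a direction relative to the loess centring alone. Some larger changes turned as well under median centring or scale normalization, as listed at the end. Without P7 replicate 3, which stood apart (r = 0.89 and 0.91 with the other P7 arrays, which correlated at 0.96), 3820 genes rose (26.0%) and 3468 fell (23.6%) of 14686, together 49.6%.

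The same comparison in WT mice called 6022 of 15089 genes (39.9%), 18.4% higher and 21.5% lower, and with spots kept 7837 of 17840 (43.9%), 20.2% higher and 23.7% lower. Of the genes tested in both genotypes, 2227 rose in both, which is 58.7% of those that rose in Nrf2-/- and 83.0% of those that rose in WT. Likewise 2700 fell in both, 65.9% of those that fell in Nrf2-/- and 89.6% of those that fell in WT. Only 6 genes rose in Nrf2-/- and fell in WT, and 4 did the opposite, of 14291. The 2 comparisons share no array.

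Among genes tested with the marked spots left out, whose adult and P7 arrays did not overlap, the 10 largest increases were led by *Ada*, adenosine deaminase, an enzyme of purine salvage that keratinizing epithelia of the upper digestive tract hold at very high levels. *Ada* read -1.49, -1.59 and -1.33 at P7 and 5.96, 5.77 and 5.88 in adults, a change of 7.34 (SE 0.11, adjusted p = 3.2e-07). *Cyp2c65*, an arachidonic acid oxidizing P450, rose by 6.34 (SE 0.17), from 0.08 to 0.55 at P7 to 6.38 to 6.79 in adults. *Serpinb13*, a cathepsin inhibitor of squamous cells, rose by 5.93, and *Serpinb3c*, of the same inhibitor family, by 5.70. *Slc6a19*, a transporter of neutral amino acids, rose by 5.90, and *Crisp1*, a cysteine-rich secretory protein, by 5.78. *Skint3*, of a family expressed in skin and thymus epithelium, was not well above background at P7 and was at least 17.7-fold higher in the Cy5 of adults (5.60 in the ratio, adjusted p = 7.5e-07). *Mt4*, the metallothionein of stratified squamous epithelium, rose by 5.52 (SE 0.63), from values of 2.71, 0.63 and -0.02 at P7 to 6.41 to 6.85, and by 9.20 on Cy5 alone. The remaining 2 of the 10 were *AK008862* and *2310002F09Rik*, at 6.50 and 5.79.

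The 10 largest decreases among the same tested genes held genes of fetal growth, muscle and liver. *Afp*, the fetal serum protein of liver, read 1.81, 4.34 and 8.40 on the 3 P7 arrays and -4.75, -5.01 and -4.81 in adults (-9.71, SE 1.44, adjusted p = 0.0011), and the change was -7.93 without P7 replicate 3. *Atp1b4*, a muscle protein of the inner nuclear membrane, was not well above background in adults and was at least 106-fold lower there in Cy5 (-7.84 in the ratio, adjusted p = 3.1e-07). *Igf2*, the imprinted fetal growth factor, read 4.14, 4.70 and 4.67 at P7 and -1.31, -1.09 and -1.12 in adults, a fall of 5.68 (SE 0.17). *Myog*, myogenin, the factor that starts muscle differentiation, fell by 5.64 (SE 0.16), from 4.34, 4.50 and 4.63. *Gatm*, the first enzyme of creatine synthesis, fell by 6.12, and *Aldh1a3*, which makes retinoic acid, by 5.14 (SE 0.37). *Slc6a14*, an amino acid transporter, fell from 5.96 to 6.02 at P7 to 0.87 to 1.04 in adults, and *Ifit1bl1*, of an interferon-induced family, fell by 6.15. *Fndc3c1* and *Dcaf12l1* were not well above background in adults and were at least 37.1-fold and 19.1-fold lower there in Cy5.

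Markers of the tissues that dissection removed fell, and they fell unequally. Of 24 skeletal muscle markers 23 fell with spots kept and none rose, with a median of -2.95 beside 0.01 over all genes. *Acta1*, skeletal actin, read 5.53, 5.64 and 5.45 at P7 and 2.33, 3.71 and 3.57 in adults (-2.34, SE 0.35, spots kept). *Myh3*, the embryonic myosin heavy chain, fell by 6.56 (SE 0.13, spots kept), to -0.96, -0.79 and -1.20, and *Tnnt1*, slow troponin T, by 5.67. Muscle RNA was not gone from the adult samples: the summed Cy5 signal of the list was 38101, 112714 and 91664 on the 3 Nrf2-/- adult arrays, 22794 to 47707 on the WT adult arrays, and 1207336 to 1344182 on the Nrf2-/- P7 arrays. Of 18 fibroblast and matrix markers 17 fell and 1 rose (median -2.14, spots kept), among them *Col1a1* by 3.08, *Col3a1* by 2.56 and *Col1a2* by 3.30 (spots kept), while *Thy1* rose by 0.49. All 6 tested smooth muscle markers fell, *Acta2* by 1.60. Of the 10 endothelial markers 7 fell, *Kdr*, the main receptor of vascular endothelial growth factor, by 2.79, and 1 rose. Of the 12 neuron and glia markers 10 fell, *Stmn2* by 3.07, and *Chat*, which makes acetylcholine, rose by 3.38 (SE 0.16). All 6 fat cell markers fell, *Fabp4* by 3.54, and all 4 red cell markers, *Alas2*, the heme enzyme of red cells, by 2.70. Under every alternative tried the medians of these 7 lists stayed below 0.

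Liver genes marked 1 array. The summed Cy5 signal of 12 liver markers, a list chosen after the values were seen, was 28452, 115300 and 1114949 on the 3 P7 arrays and 934.7 to 956.4 in Nrf2-/- adults, and 29240 to 287586 on the WT P7 arrays. *Alb*, albumin, had scaled Cy5 intensities of 1604, 7748 and 162100 at P7 and of 68.2 to 72.2 in adults. P7 replicate 3 was thus the highest in liver genes and, as described below, the lowest in several cornification genes. Whether liver tissue in the P7 samples took part in any other difference was not tested. By the sex-linked genes *Xist* and *Ddx3y*, P7 replicates 1 and 3 were male, P7 replicate 2 was female and the 3 Nrf2-/- adults were male, while the 3 WT pups were female and the 3 WT adults male. In WT sex and age therefore cannot be told apart. Lists for other neighbouring tissues were also added after the values were seen: of 7 pancreas markers tested 2 rose and 4 fell, of 5 thyroid and thymus markers 1 rose and 2 fell, of 6 airway and stomach markers 3 rose and 1 fell, and of 5 cartilage markers none rose and 2 fell.

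**Figure D1:**
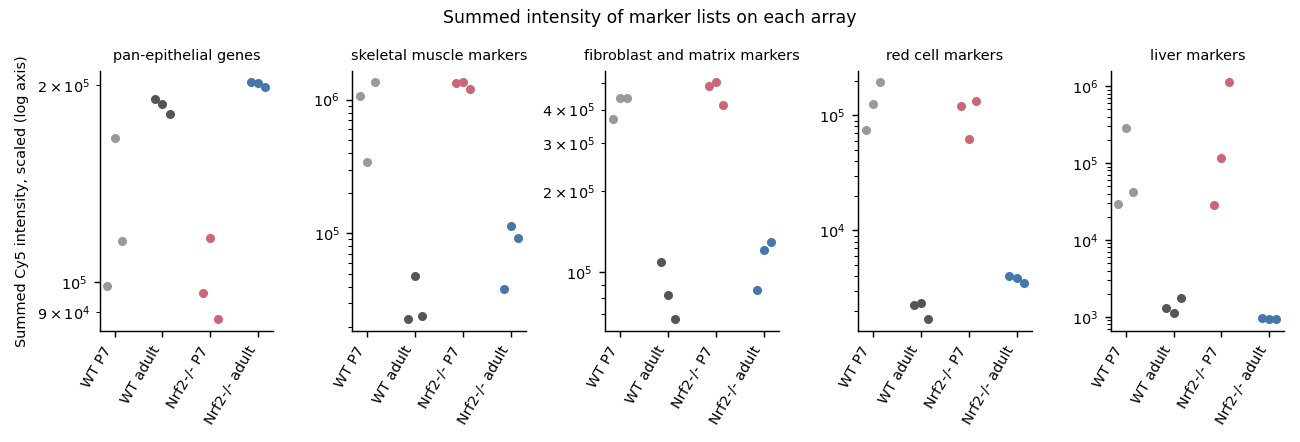
Summed Cy5 intensity, scaled between arrays, of 5 marker lists on a log axis. Each point is 1 array of the 4 groups named below the axis. The Nrf2-/- adult arrays lie far below the Nrf2-/- P7 arrays for muscle, fibroblast, red cell and liver markers and above them for pan-epithelial genes, and P7 replicate 3 (the third point from the left in its group) is the highest for liver markers.

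Immune cell markers did not fall as a list, unlike those of the other cell types. Of 20 tested, 7 rose and 3 fell, where 27.0% of all genes rose and 28.3% fell. These counts therefore show no rise particular to the list. Its median of 0.36 turned to -0.80 when arrays were centred on pan-epithelial genes. *Cd207*, langerin of Langerhans cells, read -0.09, -0.03 and 0.50 at P7 and 2.69, 2.11 and 3.12 in adults (2.52, SE 0.28, adjusted p = 0.00026). *H2-Aa* and *Cd74*, of antigen presentation, rose by 2.18 and 1.85. *Ms4a1*, the B cell antigen CD20, fell by 0.86 in the loess ratios but was 0.31 in the deposited ratios, and *Ptprc*, carried by all leukocytes, was 0.60 lower and did not pass the test (adjusted p = 0.0797).

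Genes common to epithelia were set beside these losses. Of 16 pan-epithelial genes tested 10 rose and 3 fell, with a median of 0.76 that became -0.67 under scale normalization between arrays, and on Cy5 alone 19 of 23 rose and 3 fell with a median of 1.36. *Ovol1*, a repressor that stops keratinocyte division, rose by 2.46 (SE 0.17), *Grhl1* by 2.23 (spots kept) and *Ap1m2*, a sorting adaptor of polarized cells, by 1.49. *Cdh1*, E-cadherin, fell by 0.56 in the ratio but was 0.83 higher on Cy5 alone. *Cldn7*, a claudin, fell by 5.97 (SE 0.17, spots kept), from 3.23, 3.83 and 3.55 to -2.43, -2.59 and -2.27, and by 6.24 on Cy5 alone. *Elf3* and *Marveld3* fell by 1.43 and 0.80.

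Of 11 basal layer and hemidesmosome genes tested 4 rose and 2 fell, with a median of 0.29 that became -0.70 under scale normalization. With spots kept 9 of 16 rose and 3 fell, with a median of 0.40 beside 0.01 over all genes. *Krt5* and *Krt14*, the keratin pair of basal cells, rose by 0.45 (SE 0.11, adjusted p = 0.0092) and 0.59 (SE 0.10) with spots kept, and *Krt15* was 0.29 higher without passing the test (adjusted p = 0.193, or 0.40 and adjusted p = 0.0428 with spots kept). *Trp63*, the factor that keeps basal cells, rose by 1.23 (SE 0.13), from 3.62, 3.62 and 3.27 to 4.66, 4.81 and 4.74, and *Lamb3*, a laminin chain of the basement membrane, by 0.98. *Plec* fell by 0.96 and *Dst* by 0.47, both linkers of hemidesmosomes.

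Keratins other than those of the basal layer, a list that includes simple epithelial keratins, moved in opposite directions. Of 11 tested 6 rose and 3 fell (median 1.24, or -0.13 in the deposited ratios and 2.61 without P7 replicate 1), and with spots kept 5 of 20 rose and 5 fell (median 0.13). *Krt76* and *Krt79* rose by 3.95 and 3.76, *Krt76* from -0.00 to 0.52 at P7 to 4.04 to 4.35 in adults. *Krt10*, of cornifying cells, rose by 2.67 between the 2 P7 arrays and the 3 adult arrays with a value, but the marked spot of P7 replicate 1 held a Cy5 intensity of 13100, above the 2054 to 3212 of the adults. The simple epithelial keratins went the other way. *Krt19* fell by 6.30 (SE 0.13, spots kept), from 2.72, 2.79 and 2.47 to -3.47, -3.66 and -3.80, *Krt7* by 5.88 (spots kept) and *Krt8* by 2.98.

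Ratios and Cy5 parted for several of these keratins. *Krt4* and *Krt13*, the pair that marks the upper layers of the esophagus, did not pass the test in the ratio, at 0.15 (SE 0.16, adjusted p = 0.452) and 0.10 (SE 0.11, adjusted p = 0.443) with spots kept, whereas their Cy5 signal was 1.99 and 1.58 higher in adults. For *Krt4*, scaled Cy5 was 51370, 37700 and 26790 at P7 and 122100, 164300 and 162100 in adults, without overlap. *Krt6a*, of fast renewing and injured epithelia, was 0.25 higher in the ratio (adjusted p = 0.134, spots kept) but fell by 3.16 on Cy5 alone. *Krt78* and *Krt17* were singled out after their values were seen. *Krt78* was -0.12 in the ratio (adjusted p = 0.493, spots kept) and rose by 4.65 on Cy5 alone, from 3785 to 7117 at P7 to 136800 to 139800. *Krt17* fell by 1.19 in the ratio and by 5.32 on Cy5 alone.

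**Figure D2:**
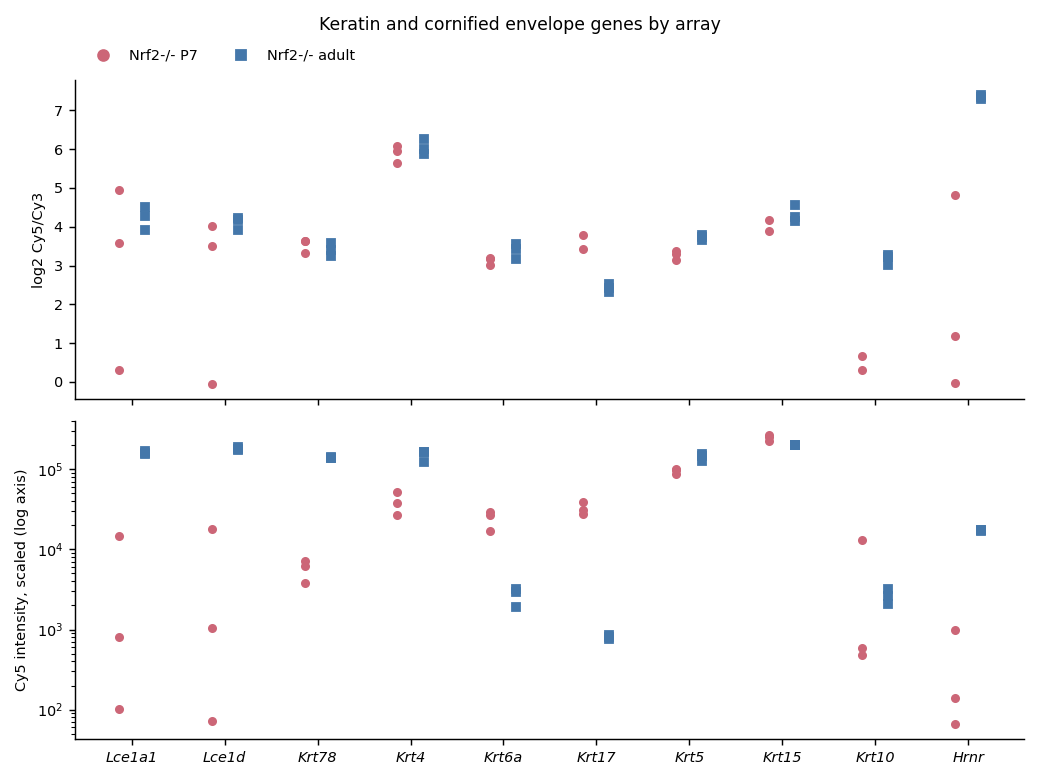
Log2 ratio to the reference (upper panel) and scaled Cy5 intensity on a log axis (lower panel) of keratin and cornified envelope genes. Each point is 1 of the 3 P7 (circles) or 3 adult (squares) Nrf2-/- arrays; a ratio is missing where its spot was marked as an outlier (*Krt10*, *Krt15* and *Krt17*). *Lce1a1*, *Lce1d* and *Krt78* overlap between the ages in the ratio and do not overlap in Cy5, and the 3 P7 arrays lie far apart for *Lce1a1*, *Lce1d* and *Hrnr*.

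Most genes of cornification rose in the adults without Nrf2. Of 15 genes of the cornified envelope and granular layer tested 13 rose and 1 fell (median 2.04), and with spots kept 18 of 24 rose and 2 fell (median 0.93). In the processed signals of the software 6 of the 15 rose and 1 fell, and centred on pan-epithelial genes 8 rose and 3 fell. *Casp14*, the protease of terminal keratinocytes, rose by 4.06 (SE 0.21), from 0.55, -0.25 and -0.18 to 4.10, 4.10 and 4.11. *Hrnr*, hornerin, rose by 5.35 (SE 1.09), and its P7 arrays spread from 4.82 through 1.20 to -0.03 while the adults lay at 7.30 to 7.40. *Rptn*, repetin, rose by 3.75 (SE 0.62) over 2 P7 arrays, and was -0.34 in the deposited ratios. *Ivl*, involucrin, an early envelope protein, rose by 1.15 (SE 0.21) and *Cnfn*, cornifelin, by 0.37 (adjusted p = 0.0436), but was -1.60 under scale normalization. *Mal*, a sorting protein of apical membranes, fell by 3.56, and *Emp1* by 0.98 (spots kept).

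The late cornified envelope (Lce) genes, a cluster whose proteins are added to the envelope last, rose in 7 of 13 tested cases and fell in none (median 2.92), and on Cy5 alone all 14 rose (median 7.36). Without P7 replicate 3 the ratios gave 5 of 11 higher and none lower (median 1.75). They also showed the widest spread within P7. *Lce1a1* read 4.94, 3.57 and 0.31 at P7 and 4.28, 3.92 and 4.51 in adults, which did not pass the test (1.30, SE 1.04, adjusted p = 0.322), while its scaled Cy5 was 14800, 808 and 101 at P7 and 153500, 159500 and 166900 in adults. *Lce1a2* was 2.50 higher (adjusted p = 0.069). *Lce1b*, *Lce1c* and *Lce1g* rose by 5.03, 4.31 and 3.93, with standard errors of 0.59 to 0.61. In the Cy5 signal of each of these 5 genes P7 replicate 1 was the highest and P7 replicate 3 the lowest of the P7 arrays. In the small proline-rich (Sprr) family, whose members cross-link envelope proteins, 3 of 6 tested rose and none fell (median 0.45, or -0.13 under scale normalization and -0.68 when arrays were centred on pan-epithelial genes), and with spots kept 5 of 12 rose and 2 fell. *Sprr1b* was not well above background at P7 and was at least 40.8-fold higher in the Cy5 of adults (3.86 in the ratio), *Sprr2h* rose by 3.35 and *Sprr3*, abundant in the esophagus, by 0.87 (spots kept). *Sprr1a* and *Sprr2a1* did not pass the test, at 0.17 (adjusted p = 0.376, spots kept) and -0.18 (adjusted p = 0.292), and *Sprr2f* fell by 1.98 (spots kept).

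Most genes of cell contacts rose as well in the loess ratios, but not when arrays were centred on pan-epithelial genes. Of 11 desmosome genes 9 rose and 1 fell (median 1.34): *Dsg1a* and *Dsc1*, the cadherins of the upper layers, rose by 5.45 (SE 0.55) and 5.06 (SE 0.54), *Dsg1b* by 3.29 and *Dsg1c*, not well above background at P7, at least 1.88-fold in Cy5, and *Pkp2*, of simple epithelia and heart, fell by 2.50. Centred on pan-epithelial genes, 5 of the 11 desmosome genes rose and 3 fell (median 0.18). *Dsg1a* read 2.63, 2.38 and 0.33 at P7 and 7.17 to 7.32 in adults. Of 16 tight and gap junction genes 11 rose and 1 fell (median 0.86). When arrays were centred on pan-epithelial genes 6 of them rose and 8 fell (median -0.30). The connexins *Gja1* and *Gjb5* rose by 3.53 and 3.26, and *Cldn3*, a claudin of simple epithelia, fell by 3.56. *Cldn1* and *Cldn4* did not pass the test, at -0.34 (adjusted p = 0.267) and -0.21 (adjusted p = 0.128).

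Proteases, their inhibitors and barrier lipid enzymes were among the lists with the highest medians. Of 19 squamous proteases and inhibitors 15 rose and 1 fell (median 2.77). The kallikreins *Klk5*, *Klk6* and *Klk7*, which cut desmosomes as cells are shed, rose by 3.42, 2.98 and 4.78, and *Klk7* read 3.25, 0.61 and 0.05 at P7. *Slpi*, a secreted protease inhibitor, rose by 6.49 (SE 0.50, spots kept) and *Serpinb3a* by 5.48, whereas *Csta1*, a cystatin, fell by 0.48 in the ratio but was 0.36 higher on Cy5 alone. All 15 barrier lipid genes tested rose (median 2.30), among them *Fabp5*, a fatty acid carrier, by 4.64, *Abca12*, which loads lamellar granules, by 4.41, *Degs2*, which makes phytoceramide, by 4.06 and the elongases *Elovl4* and *Elovl6* by 3.57 and 2.30. Of 4 S100 genes tested 2 rose and 1 fell (median 0.71, or -0.42 when arrays were centred on pan-epithelial genes and 2.65 or 2.53 without P7 replicate 1 or 2): *S100a7a* rose by 5.05 (SE 0.24), *S100a8* by 1.44 (but -0.01 with spots kept), and *S100a10* fell by 0.89.

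**Figure D3:**
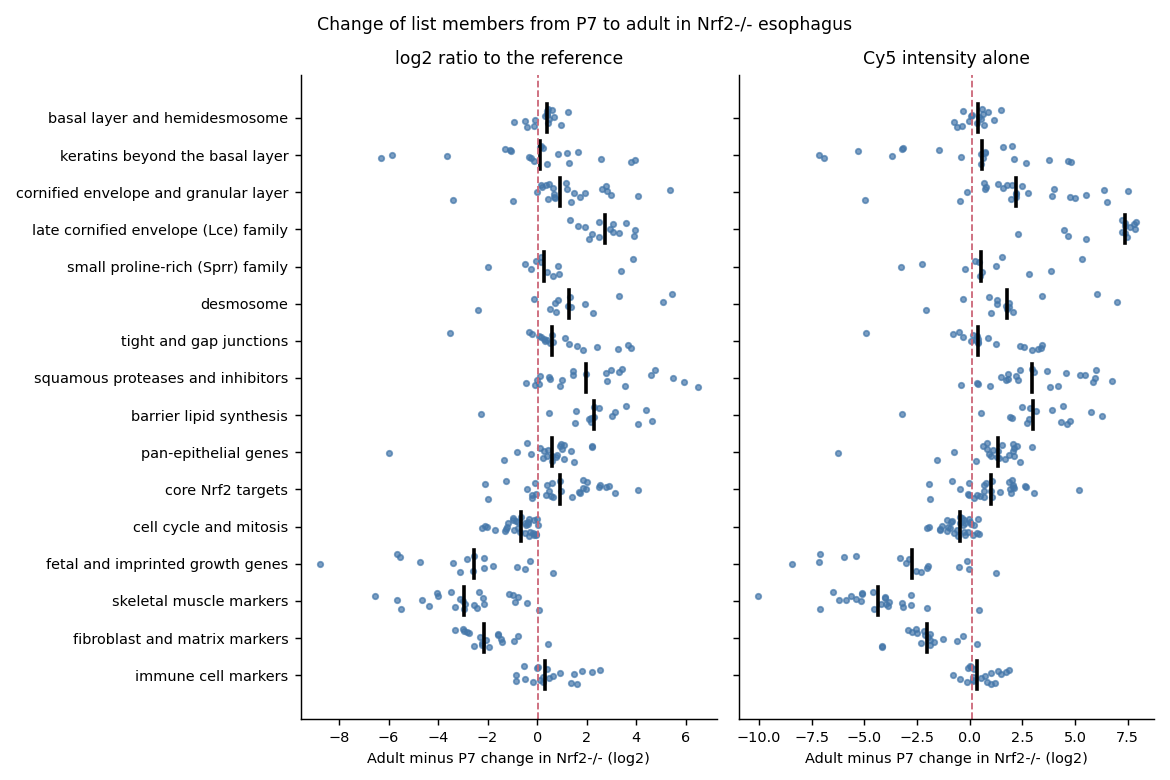
Adult minus P7 change of each list member in Nrf2-/- esophagus on the log2 scale, with outlier-marked spots kept, from the ratio to the reference (left) and from Cy5 alone (right). Each dot is 1 gene, the black bar is the median of the list and the dashed line the median of all genes tested. The Lce family has a median of 2.73 in the ratio and 7.36 in Cy5, and skeletal muscle markers of -2.95 and -4.36.

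Many of the genes that Nrf2 is known to control rose in its absence. The antioxidant response element core, written TGACNNNGC, was searched on both strands of the promoter windows of RefSeq (GRCm38.p6, 250 bases before to 50 after each start). It stood in 36.7% of the windows of core Nrf2 targets (11 of 30, for 23 of the 29 genes) and in 12.4% of all 32851 windows. The 250 bases upstream of the start are printed, 5′ to 3′ on the strand of the gene, for 3 core targets with a match (in capitals), 1 of which rose (*Gclm*), 1 of which rose with spots kept (*G6pdx*) and 1 of which fell (*Gsta3*), and for *Akr1b8* and *Gstp1*, detoxifying enzymes whose change differed between the genotypes with spots kept and neither of which holds a match. The windows are chr3:122245307-122245556 on the plus strand for *Gclm*, chrX:74428881-74429130 on the minus strand for *G6pdx*, chr1:21240335-21240584 on the plus strand for *Gsta3*, chr6:34353896-34354145 on the plus strand for *Akr1b8* and chr19:4037913-4038162 on the minus strand for *Gstp1*.
Gclm: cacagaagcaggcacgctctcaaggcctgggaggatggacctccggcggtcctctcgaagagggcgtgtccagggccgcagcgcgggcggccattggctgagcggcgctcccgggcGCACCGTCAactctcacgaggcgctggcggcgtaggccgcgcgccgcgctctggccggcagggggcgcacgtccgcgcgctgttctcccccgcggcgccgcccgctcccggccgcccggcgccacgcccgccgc
G6pdx: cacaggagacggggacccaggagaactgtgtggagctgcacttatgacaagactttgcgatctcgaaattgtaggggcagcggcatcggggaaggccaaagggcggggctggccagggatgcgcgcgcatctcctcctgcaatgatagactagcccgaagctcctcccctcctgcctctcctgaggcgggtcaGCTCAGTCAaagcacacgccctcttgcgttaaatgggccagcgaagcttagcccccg
Gsta3: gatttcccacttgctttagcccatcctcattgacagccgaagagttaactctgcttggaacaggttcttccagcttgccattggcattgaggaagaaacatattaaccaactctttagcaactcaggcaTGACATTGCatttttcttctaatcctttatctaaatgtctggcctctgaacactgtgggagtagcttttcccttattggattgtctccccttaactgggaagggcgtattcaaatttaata
Akr1b8: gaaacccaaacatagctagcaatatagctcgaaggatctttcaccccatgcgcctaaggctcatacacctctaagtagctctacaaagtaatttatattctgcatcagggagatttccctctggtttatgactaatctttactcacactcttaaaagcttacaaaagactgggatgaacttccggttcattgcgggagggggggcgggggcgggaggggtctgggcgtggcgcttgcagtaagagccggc
Gstp1: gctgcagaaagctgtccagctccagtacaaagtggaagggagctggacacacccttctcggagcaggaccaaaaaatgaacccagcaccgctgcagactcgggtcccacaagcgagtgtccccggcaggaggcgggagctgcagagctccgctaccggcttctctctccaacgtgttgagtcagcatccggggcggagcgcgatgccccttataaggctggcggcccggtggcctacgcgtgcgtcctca
A match describes these letters only, and the search says nothing of binding. Variants of this core were not searched, so a window without a match may still hold one.

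Of 17 core Nrf2 targets tested in Nrf2-/- esophagi 10 rose and 2 fell (median 0.54, or -0.61 when arrays were centred on pan-epithelial genes), and with spots kept 18 of 29 rose and 3 fell (median 0.91). In WT esophagi with spots kept 24 of 29 rose and 1 fell (median 1.69). *Nqo1*, the quinone reductase used as the standard readout of Nrf2, read -2.58, -2.63 and -2.60 in Nrf2-/- pups and -0.83, -0.88 and -0.73 in Nrf2-/- adults, a rise of 1.79 (SE 0.10, adjusted p = 1.5e-05). *Aldh3a1*, an aldehyde dehydrogenase of stratified epithelia, was not well above background at P7 and was at least 37.1-fold higher in the Cy5 of adults, beside a smaller change of 4.05 in the ratio (SE 0.14). *Gstm2* rose by 2.92 (SE 0.10) and *Me1*, the cytosolic malic enzyme that makes NADPH, by 3.16 (SE 0.18), both with spots kept.

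Of 9 genes of glutathione synthesis and use 4 rose and 2 fell (median 0.38, or -0.77 when arrays were centred on pan-epithelial genes). The 2 subunits of glutamate-cysteine ligase, which starts glutathione synthesis, parted. *Gclm*, the modifier subunit, rose by 0.90 (SE 0.21), from -0.45, -0.43 and 0.08 to 0.60, 0.97 and 0.33, while *Gclc*, the catalytic subunit, was 0.76 lower without passing the test (SE 0.31, adjusted p = 0.0796). *Slc7a11*, which imports cystine, was not well above background at P7 and rose at least 3.53-fold in Cy5, *Gpx2*, the gastrointestinal glutathione peroxidase, rose by 3.32 (SE 0.26), and *Gsr*, which regenerates glutathione, fell by 2.16 (SE 0.16), from 0.16, 0.28 and 0.72 to -1.91, -1.74 and -1.68. Among glutathione S-transferases 4 of 10 tested rose and 1 fell (median -0.00, or 0.75 under median centring), and with spots kept 11 of 21 rose and 2 fell (median 0.50). *Gstm1* rose by 2.36 (SE 0.11) and *Gstm3* by 2.49 (spots kept), *Gsta1* and *Gsta2* rose by 1.13 and 0.94 (spots kept), and *Gsta3* fell by 1.52 over the 2 P7 arrays with a value. The marked P7 replicate 3, the array with the most liver signal, held 5459 in Cy5 for *Gsta3*, against 1062 and 1414 on the other P7 arrays.

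Of the 7 genes of NADPH supply 6 rose and none fell with spots kept (median 0.98, while the median of the 4 tested without the marked spots, 0.88, became -0.28 when arrays were centred on pan-epithelial genes), with *G6pdx* at 1.71 (SE 0.11, spots kept) and *Pgd*, the next enzyme of the pentose phosphate pathway, at 1.60 (SE 0.23). Of 16 quinone, carbonyl and heme enzymes tested 3 rose and 8 fell (median -0.40, or 0.73 when arrays were centred on their median). Among them *Hmox1*, heme oxygenase, rose by 2.79 and *Cbr3* by 1.98 (both spots kept), while *Nqo2* fell by 1.17 and *Akr1c18*, *Akr1c14* and *Akr1c12*, ketosteroid reductases, by 3.12, 2.74 and 1.62. Of 7 thioredoxin and peroxiredoxin genes 3 rose and 3 fell (median -0.36, or 0.59 when arrays were centred on their median): *Srxn1*, sulfiredoxin, rose by 0.54 and *Prdx6* by 0.95, and *Txnrd1*, thioredoxin reductase, did not pass the test (-0.07, SE 0.15, adjusted p = 0.702, spots kept). Among 8 genes of Nrf2 and its partners 4 rose and none fell (median 0.55, or -0.61 when arrays were centred on pan-epithelial genes), and with spots kept 5 of 11 rose and 2 fell (median 0.04). *Maff*, a small Maf protein, rose by 2.36 (SE 0.13), and *Sqstm1*, which binds Keap1, fell by 0.97 (spots kept).

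**Figure D4:**
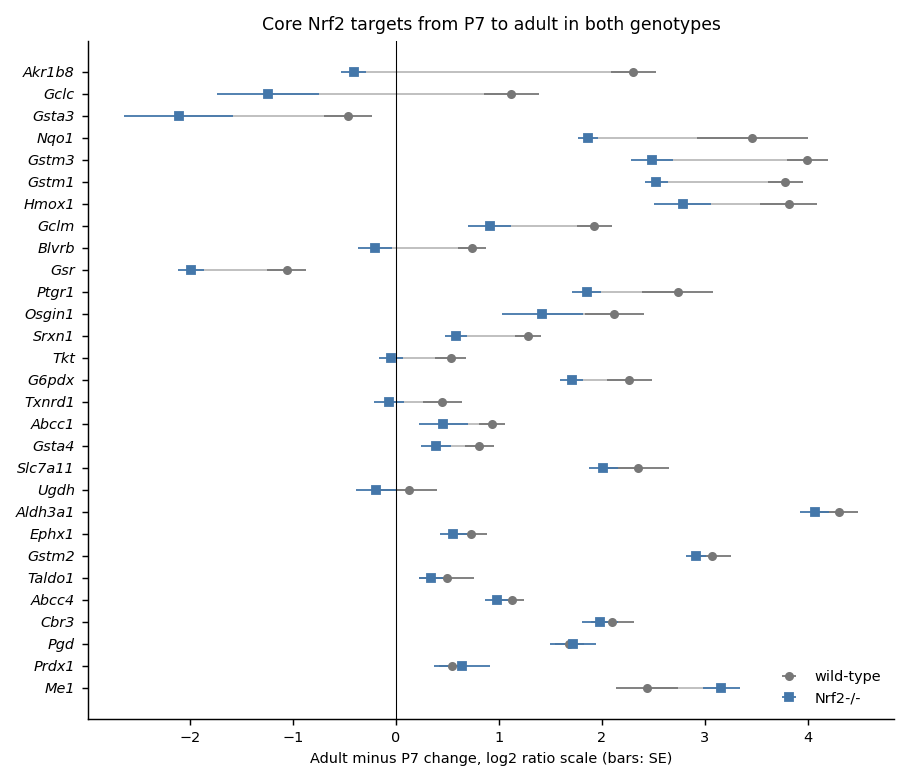
Adult minus P7 change of the 29 core Nrf2 targets on the log2 ratio scale in Nrf2-/- (squares) and WT (circles) esophagi, outlier-marked spots kept, with bars for the standard error. Genes are ordered by the difference between the genotypes, and the Nrf2-/- value lies below the WT value in 26 of 29. The list was written with earlier results of these data known.

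Whether a change differed between the genotypes was tested as an interaction on the 12 arrays. Of 15910 genes 7 differed (0.044%), 3 with a change higher in Nrf2-/- (0.0189%) and 4 with a lower one (0.0251%), while 1835 had an unadjusted p of 0.05 or lower. With spots kept 19 of 19240 differed (0.0988%), 13 higher (0.0676%) and 6 lower (0.0312%), and on Cy5 alone 25 (0.13%), 9 higher (0.0468%) and 16 lower (0.0832%). The 12 Nrf2-/- and WT arrays also differ in slide and scan, which were tried as blocks (below), and in sex at P7 (2 of 3 Nrf2-/- pups were male and no WT pup was). The part of sex in these calls was not tested. Leaving out any one of the 3 Nrf2-/- adult arrays left no gene called. Of the 29 core targets 26 had a lower change in Nrf2-/- with spots kept (9108 of 19240 genes did over all), 12 had an unadjusted p of 0.05 or lower (2172 over all), and only *Akr1b8* was called. The list was written with earlier results of these data known. The study had reported members such as *Akr1b8*, *Nqo1* and *Gstm1* as lower in these Nrf2-/- adults, so the counts are no independent support.

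*Akr1b8*, an aldo-keto reductase of lipid aldehydes, rose in WT from -2.07, -2.39 and -2.91 to -0.09, -0.02 and -0.33, and in Nrf2-/- went from -2.58, -2.60 and -2.28 to -2.85, -2.85 and -2.99, a difference of -2.71 (SE 0.27, adjusted p = 0.0024, spots kept). All 3 Nrf2-/- adults lay below every WT adult. *Gstp1*, the pi class transferase, rose by 0.50 (SE 0.11) in Nrf2-/- and by 2.22 in WT, a difference of -1.73 (SE 0.17, adjusted p = 0.0024, spots kept). It read -0.89, -0.76 and -0.73 in Nrf2-/- adults and 0.89, 1.07 and 1.06 in WT adults. *Gstm1* differed by -1.50 (SE 0.21, adjusted p = 0.0479), and missed the threshold with spots kept (-1.25, adjusted p = 0.0559). *Ces1f*, a carboxylesterase, rose to 2.66, 2.09 and 2.48 in Nrf2-/- adults and to 4.29, 5.22 and 5.34 in WT adults, a difference of -2.89 (SE 0.35, adjusted p = 0.0116, spots kept). Its probe was well above background on no WT P7 array, so that this difference has no exact size. In Cy5 the WT adults were at least 25.7-fold above the WT pups. With the marked spots left out WT adult replicate 2 had no value and the difference was -2.77 (SE 0.37, adjusted p = 0.038), but 0.38 with the local background of each spot. *Esd*, esterase D, differed by -1.22 (spots kept, adjusted p = 0.014).

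For *Nqo1*, *Gclc*, *Gclm* and *Gstm3* the change in Nrf2-/- was also below that in WT, by 1.59, 2.36, 1.02 and 1.51, but none passed the test (adjusted p = 0.376, 0.21, 0.228 and 0.14, spots kept). *Pgd* and *Me1* were on the other side, at 0.04 and 0.72 (adjusted p = 0.969 and 0.504).

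The genes with a higher change in Nrf2-/- that are described here had other roles. They are only some of the 13 with a higher change when spots were kept. Among the others were *Pmaip1* (1.74, adjusted p = 0.018) and *C030027H14Rik* (1.06, adjusted p = 0.018). *Olah*, the thioesterase that releases medium-chain fatty acids from fatty acid synthase, read -0.12, 0.02 and 0.13 in Nrf2-/- pups and 2.46, 2.30 and 2.20 in Nrf2-/- adults, and stayed between 0.11 and 0.48 in WT adults (difference 1.98, SE 0.19, adjusted p = 0.004). Its probe was well above background on the 3 Nrf2-/- adult arrays and on none of the other 9, so that this difference has no exact size, and in Cy5 the Nrf2-/- adults were at least 3.13-fold above the Nrf2-/- pups. *Tmem252*, a transmembrane protein, rose in Nrf2-/- from 0.52 to 0.58 at P7 to 2.41 to 2.54 and lay at 0.66 to 1.27 in WT adults (1.70, SE 0.21, adjusted p = 0.0202). *Sowahb*, an ankyrin repeat protein, was 4.49, 4.50 and 4.48 in Nrf2-/- adults and 2.80 to 3.39 in WT adults (1.92, SE 0.27, adjusted p = 0.038). *Plac8* fell in both genotypes, to 1.90, 2.03 and 2.26 in Nrf2-/- adults and to -0.66 to 0.14 in WT adults (2.91, SE 0.31, adjusted p = 0.0039, spots kept). *Olfr1153*, an olfactory receptor, and the unnamed probe A_51_P133953 had lower changes in Nrf2-/-, by -1.90 and -2.01. Scan as a block sets Nrf2-/- adult replicates 1 and 2 against WT adult replicate 3, the only WT adult on their scan, and takes Nrf2-/- adult replicate 3 out. The difference was then 1.92 for *Olah*, 1.36 for *Tmem252*, -3.32 for *Ces1f*, 2.185 for *Sowahb*, -1.62 for *Gstm1*, -1.89 for *Olfr1153* and -1.76 for A_51_P133953. With spots kept it was -1.81 for *Gstp1*, 3.18 for *Plac8*, -2.49 for *Akr1b8* and -1.355 for *Esd*. With 1 WT adult array left, whether the calls hold apart from scan cannot be told.

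**Figure D5:**
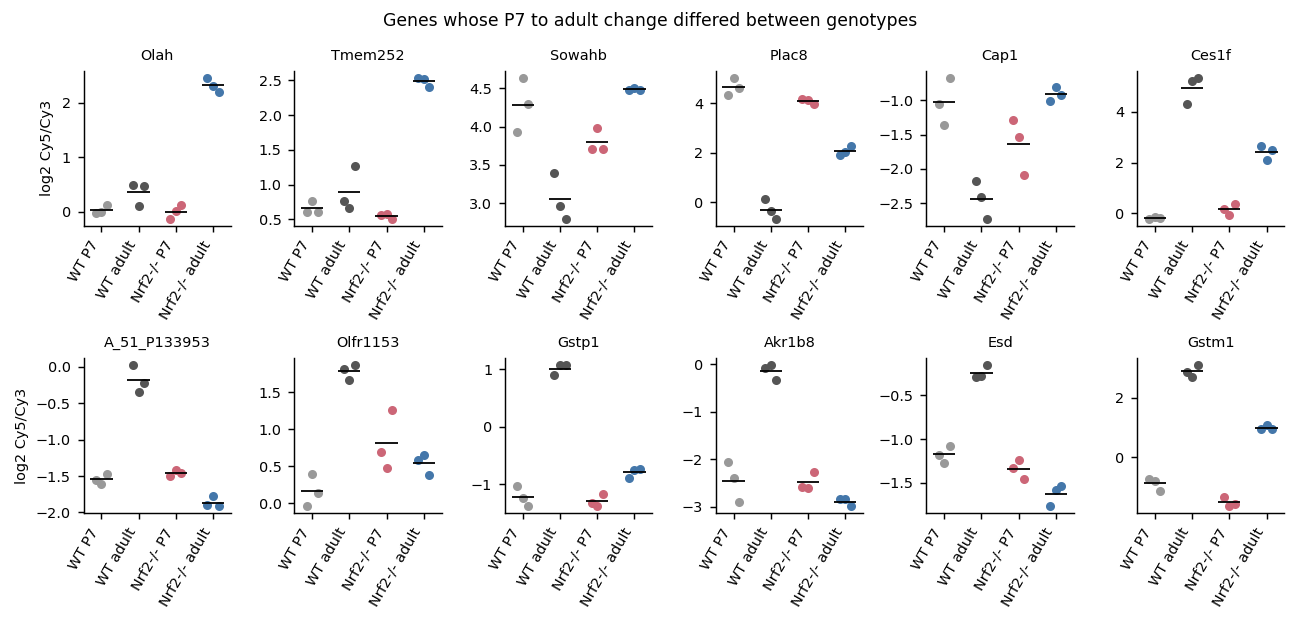
Log2 ratio on each array of the 4 groups (outlier-marked spots kept) for 12 of the genes or probes whose P7 to adult change differed between the genotypes. Each did so at an adjusted p of 0.05 or lower, *Gstm1* only with the marked spots left out. Other called genes with a higher change in Nrf2-/- are not drawn. Points are single arrays and black lines are group means; the upper row shows *Olah*, *Tmem252*, *Sowahb*, *Plac8* and *Cap1* with a higher change in Nrf2-/-, and *Ces1f* and the lower row show a lower one.

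Genes of division and fetal growth fell. Of 21 cell cycle genes 13 fell and none rose (median -0.47, but 0.36 when arrays were centred on their median, where 8 were higher and 2 lower). The replication helicase genes *Mcm2*, *Mcm4* and *Mcm6* fell by 2.22, 2.02 and 2.23 (the last 2 with spots kept), and *Mki67*, *Top2a* and *Cdk1* by 0.74, 1.04 and 0.44, where median centring gave 0.46 for *Mki67* and 0.64 for *Cdk1*. Of 11 fetal and imprinted growth genes 9 fell and 1, *Hmga2*, rose by 0.56, and with spots kept 14 of 16 fell (median -2.56). *Mest* fell by 8.78 (SE 0.13, spots kept), from 6.19, 6.34 and 6.26 to -2.70, -2.57 and -2.28. *Dlk1*, of the same imprinted group, fell by 5.54 and *H19*, the imprinted noncoding RNA beside *Igf2*, by 2.55 (both spots kept).

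Of 17 transcription factors of the squamous epithelium and foregut 7 rose and 4 fell (median 0.15, or -0.32 under scale normalization). *Pax9* and *Klf4*, which drive esophageal differentiation, rose by 1.93 and 1.84 (spots kept), *Rora*, a retinoid-related orphan receptor, by 2.20 and *Prdm1* by 2.18 (SE 0.12). *Foxa2* and *Gata6* fell by 3.12 and 2.24, and *Foxa2* read 2.60 on P7 replicate 3 against -0.31 and -0.90 on the other P7 arrays. Of 28 Notch, Wnt, Hedgehog and Bmp genes 7 rose and 12 fell (median -0.22, or 0.16 when arrays were centred on their median): *Nrarp*, a Notch target, rose by 1.99 and *Dll1*, a ligand, by 1.34, while *Hey1* fell by 3.15 (spots kept), *Id2* by 2.44 and *Shh* by 2.13. *Notch1* itself did not pass the test (-0.08, SE 0.18, adjusted p = 0.742).

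Genes that handle foreign compounds, retinoids and lipids changed in both directions. Of 13 cytochrome P450 genes 7 rose and 3 fell (median 1.39, or -0.09 under scale normalization), *Cyp2s1* by 3.95, *Cyp2b10* by 3.51 upward and *Cyp2f2* by 0.85 downward. *Cyp1a1* was not well above background at P7 and was at least 2.76-fold higher in the Cy5 of adults (adjusted p = 1.8e-05). Of 16 aldehyde and alcohol dehydrogenases and retinoid genes 8 rose and 7 fell (median 0.09, or -1.06 when arrays were centred on pan-epithelial genes and -0.03 with spots kept): *Adh7*, the alcohol dehydrogenase of the upper digestive tract, rose by 5.18 (SE 0.13) from -0.11, 0.32 and 0.09, and *Crabp2*, which carries retinoic acid, by 4.47, while *Aldh1a2* fell by 1.45. *Mt1* and *Mt2* rose by 1.96 and 2.19, the latter with spots kept. Of 12 Ppar and fatty acid genes 6 rose and 4 fell (median 0.53, or -0.21 under scale normalization): *Plin2*, of lipid droplets, rose by 1.42, and *Lpl* and *Cd36*, of fatty acid uptake, fell by 3.33 and 2.62, beside the fat cell markers above. *Ppard* rose by 0.41 and *Pparg* fell by 1.00. Of 4 Abcc export pumps 2 rose and 1 fell (median 0.64, or -0.51 when arrays were centred on pan-epithelial genes): *Abcc3* rose by 1.83 and *Abcc5* fell by 0.85.

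Defence genes showed no common direction. Of 17 epithelial cytokines and defence genes 7 rose and 4 fell (median -0.01, or 0.47 under median centring). Without P7 replicate 3 the count was 8 higher and 2 lower of 15 (median 0.51). *Il18* rose by 4.15 (SE 0.17), *Il1rn*, the interleukin 1 receptor antagonist, by 1.78 and *Pglyrp3*, a bacterial wall receptor that was not well above background at P7, at least 5.75-fold in Cy5, and *Pglyrp1* fell by 2.47 and *Lcn2* by 1.09, while *Il1a* and *Il1b*, at -0.01 and -0.14, did not pass the test. Of 12 interferon-induced genes none rose and 2 fell (median -0.69, or -0.09 without P7 replicate 1 and 0.13 under median centring, where 3 were higher and 1 lower), *Rsad2* by 1.69 and *Irf7* by 1.44. Of 14 clock genes 8 rose and 3 fell (median 0.31, or -0.84 when arrays were centred on pan-epithelial genes), *Nr1d1* by 1.72 and *Clock* by 1.27 upward and *Cry1* by 0.79 downward, and the hour of dissection is not given in the sources used here. Of 9 immediate early and heat shock genes, which respond to handling of tissue, 4 rose and 2 fell (median -0.03, or 0.78 under median centring): *Fos* and *Jun* fell by 1.87 and 1.05, and *Dnajb1* rose by 1.49.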

How the data were processed

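Agilent 4x44k mouse arrays carried esophageal RNA in Cy5 and a universal mouse reference RNA in Cy3, without dye swaps, and 12 of 27 arrays were used. The deposited scanner files hold spot intensities read with Agilent Feature Extraction (9.1 in the submitters' processing notes, 10.5.1.1 or 10.7.3.1 in the file headers). The study's methods name a GenePix scanner and GenePix Pro software instead. The deposited value table holds log10 ratios of Cy5 to Cy3, which equal the log ratio in the scanner files within 0.005 and have a median of 0 on each array. The members, gene lists and tests were chosen with earlier results of these data known.

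Mean intensities were background corrected (normexp, offset 50) and loess normalized within arrays in limma 3.58.1 (R 4.3.3), leaving out control spots, spots marked as outliers and spots whose local background was over 5 times the array's median. Probes of a gene were averaged after a fit of probe and array effects, which fills in a probe missing on an array. Of 41174 probes 27529 were named through a RefSeq accession, and the others by the file's own name, brought up to date for 4660 by symbol and 764 by synonym. A gene was tested where 3 or more of the arrays compared had a Cy5 signal well above background and each group 2 values. Ages were compared within a genotype on 6 arrays with lmFit and eBayes, and the difference between genotypes on 12, at a Benjamini-Hochberg adjusted p of 0.05. Cy5 changes come from quantile-normalized Cy5 intensities. A fold of "at least" sets the brighter group's mean against, per array, the higher of the dim probe's signal and the lowest signal well above background, on quantile-normalized Cy5, which gave lower bounds than Aquantile scaling after loess for the genes named so. Without dye swaps both are open to dye bias. On simulated data for 15222 genes of the Nrf2-/- comparison, 100 genes were changed at each size. Of these, 65% of 2-fold and 92% of 4-fold changes were recovered, beside 10 false calls. In the data themselves 55.4% of genes were called, so these rates need not hold there.

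Genes were named by a rule: the 10 largest called changes in each direction without overlap of the arrays, up to 5 in each direction that differed between genotypes, *Nfe2l2*, *Keap1* and *Rbm45*, and of each list the first 3 members and up to 3 called in each direction. A few genes that the rule names are not reported here. Each array holds RNA of a separate mouse, and the number of arrays limits the precision. Alternatives changed the background, normalization, centring, filters, batch terms and arrays used, and Cy5 alone, its bounds and the scan block with spots kept were added after the data were seen.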

Additional observations from a re-analysis of the deposited data

Results flagged for a closer look

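For 7 genes or probes the change from P7 to adulthood differed between the genotypes by limma's interaction test on 12 arrays. The change was higher in Nrf2-/- than in WT by 1.98 for *Olah*, 1.92 for *Sowahb* and 1.70 for *Tmem252*. *Olah* was well above background in Nrf2-/- adults alone, so that its difference has no exact size. The change was lower in Nrf2-/-, with a difference of -2.77 for *Ces1f*, -2.01 for A_51_P133953, -1.90 for *Olfr1153* and -1.50 for *Gstm1*. *Ces1f* was well above background on no WT P7 array, so that its difference has no exact size either. Olfactory receptors such as *Olfr1153* have many similar copies, and which copy the probe reads was not tested.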

How the results depend on the processing

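The Nrf2-/- count of 8864 called genes became 14328 when centred on pan-epithelial genes (740 higher, 13588 lower) and 3659 with a 2-fold minimum, and was 6694 to 8507 with 1 array left out. The WT count of 6022 became 2595 with the local background of each spot, 2726 under median centring and 2852 with a 2-fold minimum. The 7 genes that differed between genotypes became 4 in the processed signals, 4 without background correction, 1246 with the local background of each spot, 30 under median centring, 1 when centred on pan-epithelial genes, 3 where both channels had to be above background, 19 with spots kept, 24 on Cy5 alone and 25 there with spots kept. They became 2 with slide as a random block, 16 with software version as a block and 13 with spots kept and scan as a block, and 0 to 13 with 1 array left out: 0 without Nrf2-/- adult replicate 1, 2 or 3, where limma gave 1508 to 1901 at an unadjusted p of 0.05, and 13 without WT adult replicate 3. Replicate numbers did not pair the samples (correlations of deviations 0.0647, 0.15 and 0.0155), and with the replicate block 8438 genes were called in Nrf2-/- and 1 differed between genotypes. The causes were not tested.

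The medians named next are those that lay farther from 0 than the spread between replicates and changed by at least that spread to the other side of 0. Under scale normalization list medians turned for pan-epithelial -0.67, basal layer -0.70, Sprr -0.13, P450 -0.093, Ppar -0.21, cell cycle 0.041 and transcription factors -0.32. There the sign turned for *Ap1m2* -0.17, *Cdk1* 0.29, *Cnfn* -1.60, *Dll1* -0.16, *Krt15* -1.36, *Ms4a1* 0.86 and *Nrarp* -0.34. Under median centring list medians turned for thioredoxin 0.59, quinone enzymes 0.73, cell cycle 0.36 and Notch and Wnt 0.16. There the sign turned for *Cdh1* 0.58, *Cdk1* 0.64, *Cldn4* 0.38, *Csta1* 0.58, *Cyp2f2* 0.50, *Dst* 0.12, *Jun* 0.053, *Mki67* 0.46, *Notch1* 0.51, *S100a10* 0.66 and *Sprr2a1* 1.34. On Cy5 alone the list median turned for thioredoxin 0.29. There the sign turned for *Cdh1* 0.67, *Csta1* 0.50, *Dst* 0.03, *Krt15* -0.36 and *Ms4a1* 0.16. On Cy5 alone with spots kept list medians turned for S100 -0.0005 and thioredoxin 0.21. There the sign turned for *Cdh1* 0.83, *Csta1* 0.36, *Krt15* -0.30, *Krt6a* -3.16, *Krt78* 4.65, *Ms4a1* 0.16 and *S100a8* -0.0005. With the local background of each spot the sign turned for *Ces1f* (difference) 0.38. Centred on pan-epithelial genes list medians turned for pan-epithelial -0.39, basal layer -0.81, Sprr -0.68, junctions -0.30, S100 -0.42, glutathione -0.77, NADPH supply -0.28, Abcc -0.51, partners -0.61, core targets -0.61, Ppar -0.63, transcription factors -1.01, clock -0.84 and immune cells -0.80. There the sign turned for *Cnfn* -0.74, *Gclm* -0.25, *Hmga2* -0.59, *Ivl* -0.0023, *Krt15* -0.81, *Lamb3* -0.23, *Ppard* -0.75, *Prdx6* -0.20, *Rbm45* -0.99, *Srxn1* -0.61 and *Thy1* -0.67. Without the filter on dim probes the sign turned for *Hmga2* -0.12. In the processed signals the sign turned for *Ms4a1* 0.31 and *Rptn* -0.30. In the deposited ratios list medians turned for keratins -0.13 and partners -0.051, and the sign turned for *Ms4a1* 0.31 and *Rptn* -0.34. With spots kept the sign turned for *S100a8* -0.012. With 12 arrays in the fit the list median turned for glutathione -0.32. With the brightest probe of a gene the list median turned for Ppar -0.90. With 1 array left out the medians ranged from -0.069 (without adult replicate 3) to 0.67 for Sprr, from -0.046 (without adult replicate 2) to 0.82 for glutathione, and from -0.38 to 0.074 for thioredoxin, above 0 without P7 replicate 1 or 2. Leaving out 1 array moved the medians over 1.5 times for keratins (2.61 without P7 replicate 1), Lce (1.75 without P7 replicate 3), S100 (0.42 to 2.65), core targets (0.82 without P7 replicate 2), P450 (0.90 and 0.92 without adult replicate 2 or 3), interferon-induced genes (-1.33 to -0.09), neurons (-1.08 and -1.15 without P7 replicate 1 or 2), red cells (-1.17 without P7 replicate 3) and immune cells (0.096 without P7 replicate 2). Medians closer to 0 also changed sign: aldehyde dehydrogenases (-1.06 to 0.77), cytokines (-1.16 to 0.70), glutathione S-transferases (-1.13 to 0.75) and immediate early genes (-1.18 to 0.78), with 0.13 for interferon-induced genes under median centring. For the genes named, 3515 other values kept direction and side of the threshold, 224 lost the call and 66 gained it.

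With 3 arrays a group, small changes could not be resolved, and probes not well above background in a group have bounds only. Age, tissue, slide, scan and software cannot be told apart in Nrf2-/-.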
